A study of Mus musculus with 12 samples.

Results

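Wild-type (wt) mouse libraries titled PI were compared with wt libraries that lack the word, all at 9.5 days post coitum (dpc). The libraries were chosen by their titles, not by any measured value. There are 4 of them, 2 with PI and 2 without, among the 11 libraries of the count table and the 12 that are labelled. Both groups are wild type by their titles, with no Skp1a label there, and the titles of the groups differ only by the letters PI. The labels do not spell out PI, nor the "lot" and "mb" of the titles, and they give no agent, dose or duration. Each group holds 1 library of lot 1 and 1 of lot 2. The 2 wt libraries at 9.0 dpc, again 1 per lot, were part of the same fit and are given beside the others as a level at an earlier age.

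Poly(A) RNA was sequenced and reads were counted per gene. The labels name embryo as the source and, in the growth field, a medium for ES cells and embryoid bodies, and which tissue was sampled is not known here. They do not tie the libraries of a group to separate embryos, so the p-values below reflect how far these libraries spread, and that spread may be technical. Markers of position in the body axis were uneven. Levels are given as CPM, counts scaled to a common library size after the sizes were adjusted by TMM scaling. Otx2, a transcription factor of the forebrain and midbrain, had 213 and 207 CPM without PI. None of the 39 Hox genes, which mark the hindbrain and trunk, had enough counts to be tested. The Hox genes together came to 2.72 to 4.85 CPM in the 4 libraries. Of 21 genes of the forebrain and eye field, 14 were too low to be tested.

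The series concerns Skp1a, the adaptor of SCF ubiquitin ligases. These enzymes tag proteins for the proteasome, the protease complex of the cytosol and nucleus. Another subject is PRC2, a Polycomb complex whose methyl mark on histone H3 holds developmental regulators silent. In the early neural tube, the floor plate along the ventral midline makes Sonic hedgehog and is specified by Foxa2, the isthmus between midbrain and hindbrain makes FGF signals that hold En1 and Pax genes on, and neurons leave the pool of dividing progenitors under Notch control and proneural factors.

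Total counts were 3392251 and 9217568 without PI, 3632898 and 11190592 with PI, and 4007663 and 11607085 at 9.0 dpc, so lot 2 was the deeper of each pair. A count of 0 leaves room for up to 3 counts, a floor of 0.268 to 0.884 CPM in these 4 libraries. This floor was taken from the total counts, while the CPM of genes use the adjusted library sizes. Intervals and floors cover counting error only. Mitochondrial genes took 4.01% and 3.63% of the counts without PI and 2.75% and 2.83% with PI, and globin genes 1.43% and 1.90% against 0.753% and 0.989%. Some genes differed between lots whatever the group: Klf10 had 545 CPM in lot 1 and 72.9 CPM in lot 2 without PI, 448 and 61 CPM with PI. Among the Y-linked genes, Ddx3y had 80.0 and 80.7 CPM without PI against 27.5 and 65.2 CPM with PI, lowest in lot 1 of PI. The part of these differences in the results below was not tested.

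The PI libraries differed from the others across a large share of the transcriptome. Among the gene lists described below, most of the tested members were called higher with PI for the floor plate, the isthmus, glycolysis, the integrated stress response, NRF2 targets, the proteasome and the chaperonin TRiC. Most were called lower for neurons, the factors that drive their birth, neural progenitors, the forebrain, the mitochondrial genome, platelets and macrophages. By edgeR's quasi-likelihood test with the lot as a block, 5111 of the 13126 genes tested (38.9%) passed an adjusted p under 0.05. Of these, 2758 (21% of the genes tested) were higher with PI and 2353 (17.9%) were lower. These 2 shares are the background for the count of each list below. They move with the genes kept: under a filter of 10 CPM in at least 2 libraries, 2111 of 8251 genes were higher and 2191 lower. Most changes were small. A difference of at least 2-fold was reached by 1028 genes (7.83%), 557 of them higher (4.24%) and 471 lower (3.59%). At least 4-fold differences were found for 61 genes higher and 84 lower, and 2320 of the called genes moved by less than 1.5-fold. The median over all genes tested was 0.02 on the log2 scale, as PI minus no PI. Called or not, both PI libraries lay above both no-PI libraries in 34.8% of the genes tested and below both in 31.3%, so a gap between the groups is common by itself.

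**Figure D1:**
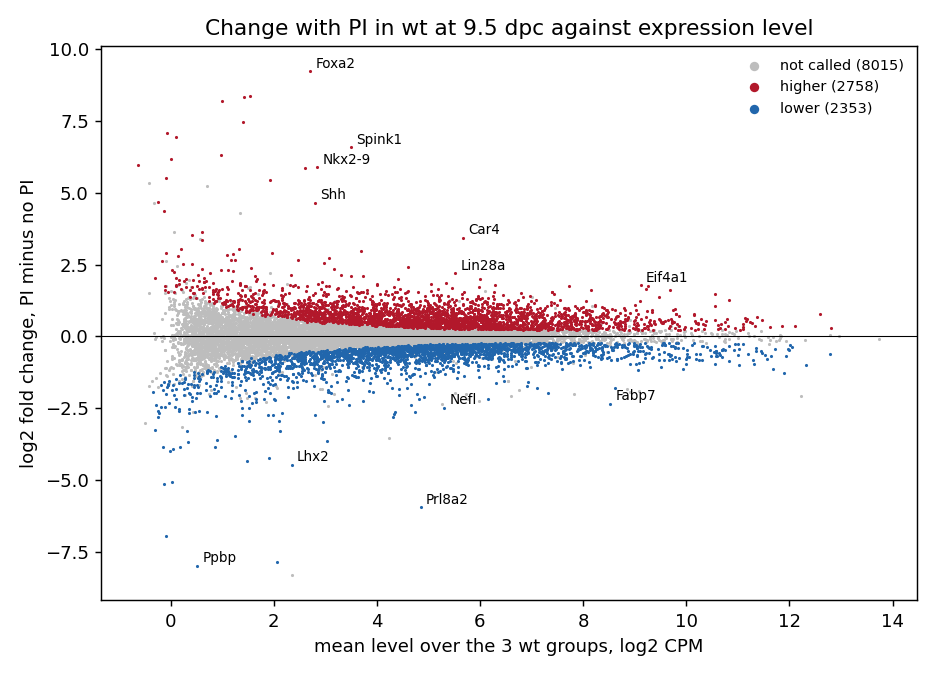
Log2 fold change of PI minus no PI (vertical axis) against the mean level over the 3 wt groups in log2 CPM (horizontal axis), 1 point for each of the 13126 genes tested. Red points are the 2758 genes called higher, blue the 2353 called lower, grey those not called. The floor plate genes Foxa2, Nkx2-9 and Shh lie at the top, and Nefl and Fabp7 are far below 0 at a high level.

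Of the called genes, 5099 (99.8%) moved the same way in both lots. The plot of lot 2 against lot 1 shows called genes almost only in its matching quadrants. With 1 library per group and lot, a gene whose lots disagree is unlikely to be called. This share therefore follows largely from the calling and is no separate evidence that the lots agree. The lot, as the titles give it, was a term of the fit, and across genes the deviations from the group mean correlated between wt libraries of the same lot with r from 0.46 to 0.50. Without the block 3669 genes were called, 3665 of them among the 5111. DESeq2's Wald test, with the block, called 1880, of which 1858 were among the 5111. A fit of all 11 libraries and groups, which has no block and also takes in the 5 Skp1a-labelled libraries, called 13, and the 2 changes cannot be told apart there. In that fit the counts of floor plate genes higher and neuron genes lower, given below, came down to 4 and 3. Without lot 1 of the no-PI group, 1800 genes were called higher. Without its lot 2, 1802 were. Without lot 2 of PI, 1564 were called lower.

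**Figure D2:**
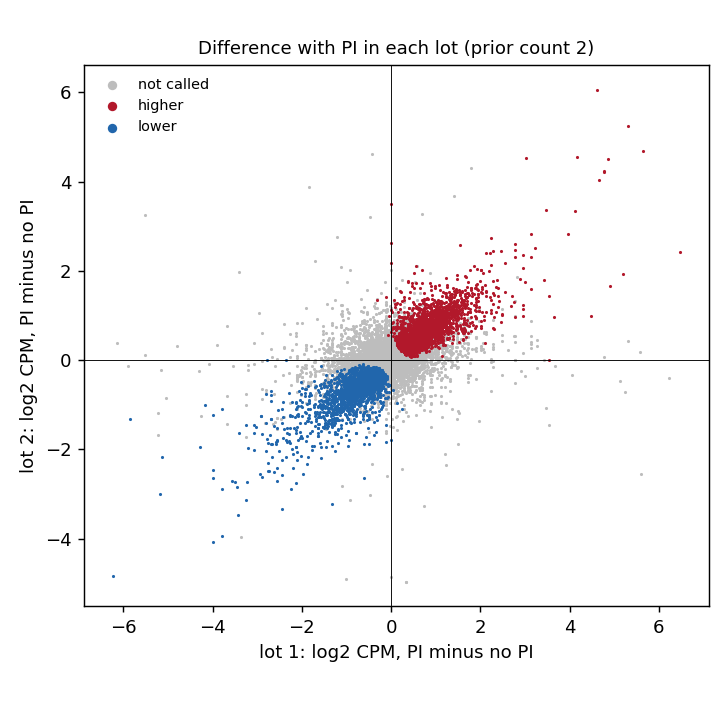
Difference of PI minus no PI in log2 CPM (prior count of 2) in lot 2 (vertical axis) against lot 1 (horizontal axis), 1 point per gene tested, with red for genes called higher, blue for lower and grey for not called. 99.8% of the called genes have the same sign in both lots, a share that the calling itself favours.

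The change with PI also moved with transcript length and GC content. With genes in 5 classes of equal size by their longest transcript, the shortest class had 30.2% called higher and 17.7% lower, and the longest 10.1% higher and 23.4% lower. By GC content, the poorest class had 11% higher and 23.6% lower, the richest 22.6% and 12.9%. Both features together held 3.37% of the variance of the log2 fold change across genes, which are not independent replicates. With both fitted as offsets, a choice made after seeing the data, 4808 genes were called, 2495 higher and 2313 lower.

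Skp1a itself lies on chromosome 11 of GRCm38, from 52231995 to 52246858 (ENSMUSG00000036309.14), and its level was 751 and 878 CPM without PI, 922 and 993 CPM with PI, and 938 and 1028 CPM at 9.0 dpc. It was slightly higher with PI, by 0.24 ± 0.09 on the log2 scale (SE, edgeR adjusted p = 0.037), and both PI libraries lay above both others at 9.5 dpc. Its call was lost without the lot as a block (0.23, edgeR adjusted p = 0.14), with DESeq2 size factors (0.20, edgeR adjusted p = 0.089), and without any of 5 of the 6 libraries in turn, lot 2 of the no-PI group being the exception (0.14 to 0.27, edgeR adjusted p from 0.085 to 0.22). Of 20 tested members of the SCF list, 7 were higher (35%) and 3 lower (15%), beside 21% and 17.9% over all genes tested. Cks1b, a small subunit that works with the F-box protein Skp2, had 318 and 397 CPM without and 618 in each library with PI.

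PRC2 genes moved in both directions. Ezh2 encodes the enzyme of the complex and lies at 47530139 to 47595341 of chromosome 6 (ENSMUSG00000029687.16). It had 374 and 345 CPM without PI, 255 and 236 CPM with PI, and 270 and 273 CPM at 9.0 dpc. This is a fall of 0.55 ± 0.08 on the log2 scale (edgeR adjusted p = 5.8e-05), with no overlap between the groups. Suz12, a core subunit needed for the complex to form (ENSMUSG00000017548.15, chromosome 11, 79993106 to 80034123), had 156 and 132 CPM without and 95.6 and 96.9 CPM with PI, a fall of 0.57 ± 0.10. Eed, the subunit that reads the methyl mark (ENSMUSG00000030619.9, chromosome 7, 89954654 to 89980983), did not pass the test, with 103 and 111 CPM without and 110 and 122 CPM with PI (0.12 ± 0.09, edgeR adjusted p = 0.29). The accessory subunit Aebp2 fell by 0.49 ± 0.09 and Lcor by 0.69 ± 0.15. The histone-binding subunit Rbbp7 rose from 341 and 357 to 527 and 513 CPM, and Rbbp4 from 265 in each library to 320 and 318 CPM. Over 11 tested PRC2 genes, 4 were lower and 2 higher, with a median of -0.06. The count of 2 higher became 1 without any of 5 of the 6 wt libraries in turn, lot 1 at 9.0 dpc being the exception, as Rbbp4 lost its call (0.23 to 0.28, edgeR adjusted p from 0.064 to 0.10).

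Of the 21 PRC1 genes, which encode the Polycomb complex that ubiquitinates histone H2A, 6 were lower (28.6%) and 4 higher (19%). Over all genes tested these shares were 17.9% and 21%. Bmi1, a core PRC1 subunit, had 170 and 153 CPM without and 96.4 and 90.3 CPM with PI, and Bcor, a subunit of a variant PRC1, had 52.4 and 46.2 against 28.8 and 29.2 CPM. Kdm2b, which brings variant PRC1 to CpG islands, rose from 19.5 and 25.7 to 36.6 and 37.8 CPM.

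Of 56 listed developmental regulators that Polycomb is known to target, 36 could be tested. Of these, 17 were lower and 8 higher, with a median of -0.51 against 0.02 over all genes. Among them is Meis2, a homeobox gene (ENSMUSG00000027210.20, at 115863064 to 116065839 of chromosome 2). Its level was 159 and 142 CPM without PI, 72.4 and 74.2 with PI, and 59.1 and 56.8 at 9.0 dpc. It fell by 1.02 ± 0.09 (edgeR adjusted p = 1.5e-07). Irx2 and Irx5, Iroquois factors of neural patterning, fell by 1.24 ± 0.12 and 1.00 ± 0.12. Among the members that rose were En1, Pax5 and Pax8 of the isthmus. The count of 8 higher was 5 without lot 1 of the no-PI group, and 4 without its lot 2 or without lot 2 of PI.

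Floor plate genes held some of the largest differences of the comparison. Foxa2, the factor that specifies the floor plate (ENSMUSG00000037025.11, chromosome 2, 148042877 to 148046969), had no count in either library without PI, 10.8 and 10.2 CPM with PI, and 9.13 and 8.84 CPM at 9.0 dpc. Against a floor of 3 counts over the no-PI group it was at least 44.8-fold higher with PI, on 161 counts against 0. Foxa1, a close relative of Foxa2, had 0 and 0.209 CPM without and 7.81 and 10.8 CPM with PI, a ratio of 65.0 with a 95% counting interval of 17.7 to 542. Nkx2-9, a homeobox gene induced by Hedgehog next to the floor plate, had 0 and 0.314 CPM without and 13.7 and 15.1 CPM with PI, a ratio of 63.7 (95% counting interval 21.5 to 311). These sizes rest on the deeper library without PI: without it the bound for Foxa2 was 11.7-fold, and Foxa1 and Nkx2-9 were at least 11.3-fold and at least 16.6-fold higher.

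Shh, the Hedgehog ligand itself (ENSMUSG00000002633.4, chromosome 5, 28456815 to 28467256), had 0.889 and 0.314 CPM without PI, 9.16 and 13.3 CPM with PI, and 10.7 and 7.47 CPM at 9.0 dpc. Its log2 fold change was 4.64 ± 0.42 (edgeR adjusted p = 3.1e-06). It was 3.71 without lot 2 of the no-PI group and 3.84 without lot 2 of PI. For these 4 genes both PI libraries lay far above both others at 9.5 dpc. PI was not tested against 9.0 dpc, here or below. In bulk RNA, fewer cells of a type and less RNA per cell cannot be told apart, here and in each group of genes below.

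The other floor plate genes and the Hedgehog pathway moved less. Spon1, a secreted matrix protein of the floor plate, had 5.63 and 5.12 CPM without and 27.2 and 28.3 CPM with PI, a rise of 2.41 ± 0.16. Ntn1, the axon guidance cue netrin, rose by 0.79 ± 0.13. The receptor Ptch1, itself a Hedgehog target, rose from 61.3 and 54.2 to 101 and 103 CPM, and the signal transducer Smo by 0.54 ± 0.11. The pathway's transcription factors did not pass the test: Gli1 had 2.37 and 1.46 CPM without and 2.69 and 2.79 CPM with PI, and Gli2 and Gli3 differed by -0.02 ± 0.15 and -0.01 ± 0.09. Wnt5a, a ventral midbrain Wnt ligand, fell by 0.74 ± 0.11. Over the list, 11 of 21 tested genes were higher and 1 lower, with a median of 0.68.

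The isthmus and midbrain list had 12 of 21 tested genes higher and 4 lower, with a median of 0.67. En1, the engrailed factor of the midbrain and hindbrain border (ENSMUSG00000058665.8, chromosome 1, 120602418 to 120607992), had 19 and 22.5 CPM without PI, 49.3 and 52.2 CPM with PI, and 40.0 and 39.7 CPM at 9.0 dpc, a rise of 1.27 ± 0.11 (edgeR adjusted p = 1.6e-07). Pax5, which acts with En1, rose from 9.48 and 9.30 to 26.1 and 26.2 CPM, above the 12.6 and 16.1 CPM at 9.0 dpc. Genes that FGF signals switch on rose as well: Etv5 by 1.32 ± 0.15, and the feedback inhibitor Spry1 by 0.67 ± 0.12. The ligand Fgf17 did not pass the test (-0.22 ± 0.17). Fgf8 was too low to be tested. The members that fell were Meis2, Otx2 (213 and 207 against 153 and 150 CPM), the paralogue En2 (46.8 and 40.7 against 34.2 and 32.0 CPM) and Mab21l2. The calls of En2 and Mab21l2 were lost without lot 1 of the no-PI group (-0.36 and -0.41, edgeR adjusted p = 0.064 and 0.092) and without lot 2 of PI (-0.38 and -0.49, edgeR adjusted p = 0.11 and 0.063).

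Dorsal genes were more often lower than higher. Of 20 tested genes of the dorsal neural tube and roof plate, 9 were lower and 2 higher, with a median of -0.28. The 2 higher were Wnt1 and Msx2. The 9 not called included Lmx1a, Wnt3a, Olig3, Gdf10, Msx3, Bmp7 and Pax7. The zinc finger factor Zic1 had 169 and 165 CPM without PI, 68.9 and 60 CPM with PI, and 29.8 and 28.6 CPM at 9.0 dpc. Zic4 fell by 1.37 ± 0.11 and Pax3 by 0.91 ± 0.11. Rspo3 and Rspo1, secreted enhancers of Wnt signalling, fell by 1.31 ± 0.18 and 0.90 ± 0.17. Dbx1, which marks progenitors midway between dorsal and ventral, had 61.6 and 41.8 CPM without and 8.89 and 7.28 CPM with PI, a fall of 2.62 ± 0.15. Of 7 tested forebrain genes, 4 were lower and none higher. Lhx2, an eye field and forebrain factor, had 18.4 and 7.84 CPM without against 1.08 and 0.254 CPM with PI, a fall of 4.47 ± 0.36.

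**Figure D3:**
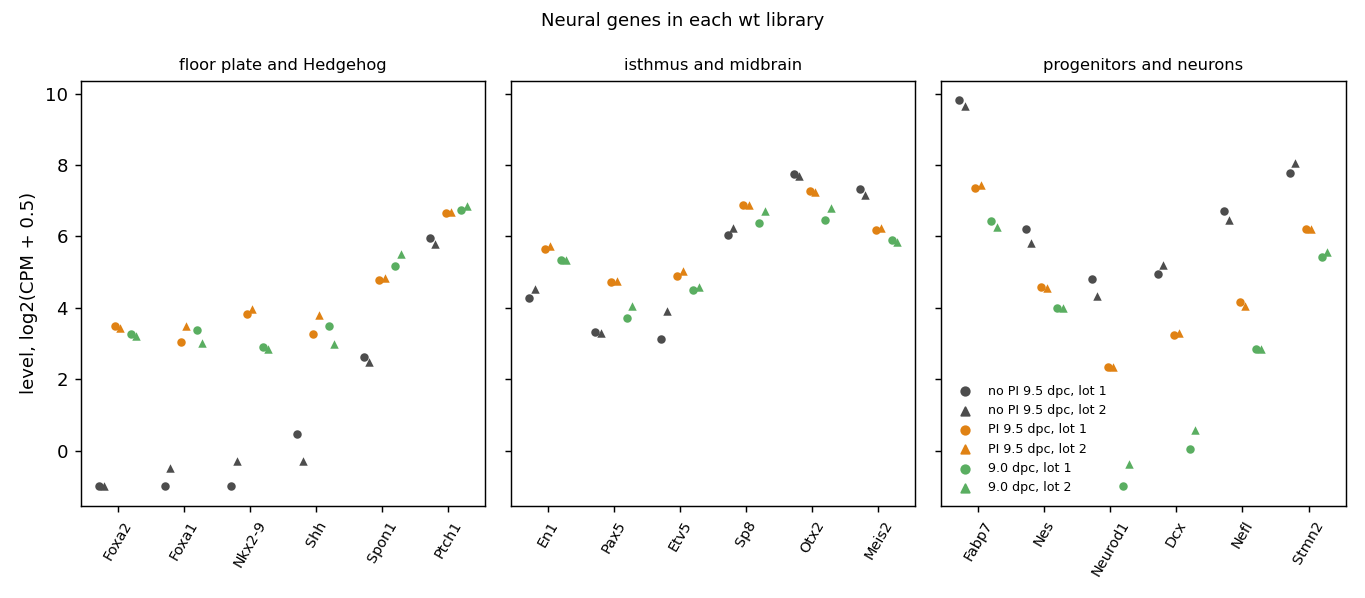
Level as log2(CPM + 0.5) of 18 neural genes (horizontal axis) in each of the 6 wt libraries. Grey points are no PI at 9.5 dpc, orange PI at 9.5 dpc and green 9.0 dpc, circles lot 1 and triangles lot 2. Foxa2, Foxa1 and Nkx2-9 sit at or near 0 counts in the no-PI libraries alone, and the 6 progenitor and neuron genes are highest in the no-PI libraries.

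Neuronal genes fell almost as a whole. Of 27 tested genes of the neuron list, 25 were lower and none higher, with a median of -1.38. Nefl, the light neurofilament subunit (ENSMUSG00000022055.7, chromosome 14, 68083863 to 68089095), had 104 and 86.9 CPM without PI, 17.5 and 16.1 CPM with PI, and 6.71 and 6.75 CPM at 9.0 dpc. It fell by 2.49 ± 0.11 (edgeR adjusted p = 6.8e-11), and Nefm, the medium subunit, by 2.38 ± 0.13. Stmn2, a tubulin-binding protein of growth cones, went from 220 and 264 CPM to 73.0 in each PI library. The microtubule proteins Mapt and Dcx fell by 2.73 ± 0.28 and 1.90 ± 0.14, and Slc17a6, the vesicular glutamate transporter, by 2.75 ± 0.30. Onecut2, Lhx9, Pou4f1 and Isl1, transcription factors of early neuron types, fell by 1.64 ± 0.09, 2.37 ± 0.17, 1.31 ± 0.11 and 1.53 ± 0.13. Tubb3, the neuronal tubulin, had 75.2 and 80.5 CPM without and 62.2 and 60.1 CPM with PI, and its call was lost without lot 2 of either group (-0.33 and -0.24, edgeR adjusted p = 0.091 and 0.27). Dpysl3 (99.5 and 108 against 99.4 and 101 CPM) and Onecut1 did not pass the test.

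The factors that drive progenitors into neurons were lower too, 13 of 19 tested against 1 higher, with a median of -1.02. Nhlh2 had 59.5 and 45.8 CPM without PI, 7.54 and 7.62 CPM with PI, and 0 and 0.820 CPM at 9.0 dpc, a fall of 2.71 ± 0.18. Neurod1 fell by 2.25 ± 0.19 and Neurod4 by 1.17 ± 0.14. The Ebf factors, which act in newborn neurons, fell by 1.12 ± 0.11 (Ebf1), 1.80 ± 0.16 (Ebf2) and 1.36 ± 0.14 (Ebf3). The Notch ligand Dll1 had 44.4 and 36.9 CPM without and 20.7 CPM in each library with PI. The exception was Neurog2, a proneural factor, which rose from 1.18 and 1.99 to 4.31 and 4.83 CPM and was at 1.61 and 1.64 CPM at 9.0 dpc. It was not called without lot 2 of PI (1.55, edgeR adjusted p = 0.086).

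Among 21 neural progenitor genes, 12 were lower and 2 higher, with a median of -0.48. Fabp7, the lipid-binding protein of radial glia (ENSMUSG00000019874.11, chromosome 10, 57784881 to 57788450), had 897 and 811 CPM without PI, 165 and 172 CPM with PI, and 85.9 and 76.2 CPM at 9.0 dpc. Its fall of 2.33 ± 0.09 had the smallest p of all genes called lower (edgeR adjusted p = 1.8e-11). The intermediate filament genes Nes and Vim fell by 1.42 ± 0.11 and 0.87 ± 0.10, the receptor Notch1 by 0.91 ± 0.12, and Sox2, which keeps progenitors dividing, by 0.85 ± 0.10. The members that rose were the RNA-binding proteins Lin28a and Lin28b, which block let-7 microRNAs. Lin28b was not called without lot 1 of either group (0.29 and 0.28, edgeR adjusted p = 0.072 and 0.10). Lin28a (ENSMUSG00000050966.9, chromosome 4, 134003330 to 134018841) had 12.1 and 13.5 CPM without PI, 58.4 and 60.1 CPM with PI, and 60.1 and 71.6 CPM at 9.0 dpc.

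The gene with the smallest p overall was Car4, a membrane-bound carbonic anhydrase (ENSMUSG00000000805.18, chromosome 11, 84957786 to 84966044). It had 5.92 and 7.84 CPM without PI, 68.7 and 83.1 CPM with PI, and 63.4 and 78.0 CPM at 9.0 dpc, a log2 fold change of 3.44 ± 0.13 (edgeR adjusted p = 1.0e-11). Another carbonic anhydrase, Car14, rose from 32.0 and 42.4 to 123 and 139 CPM. Others among the 10 smallest p of genes called higher were the translation factors Eif4a1 and Eif5a (1.78 ± 0.09 and 1.75 ± 0.09), the actin-severing protein Cfl1 (1.6 ± 0.09), the peroxidase Prdx6 (1.61 ± 0.09) and the neural adhesion molecule Prtg (1.66 ± 0.09). Eif4a1 had 248 and 240 CPM without and 799 and 867 CPM with PI. Dach1, an eye and neural tube factor, was among the 10 smallest p of those lower (2.09 ± 0.11 down). Several of these genes have processed copies elsewhere in the genome, and how reads that fit more than 1 place were counted is not given in the sources used here.

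**Figure D4:**
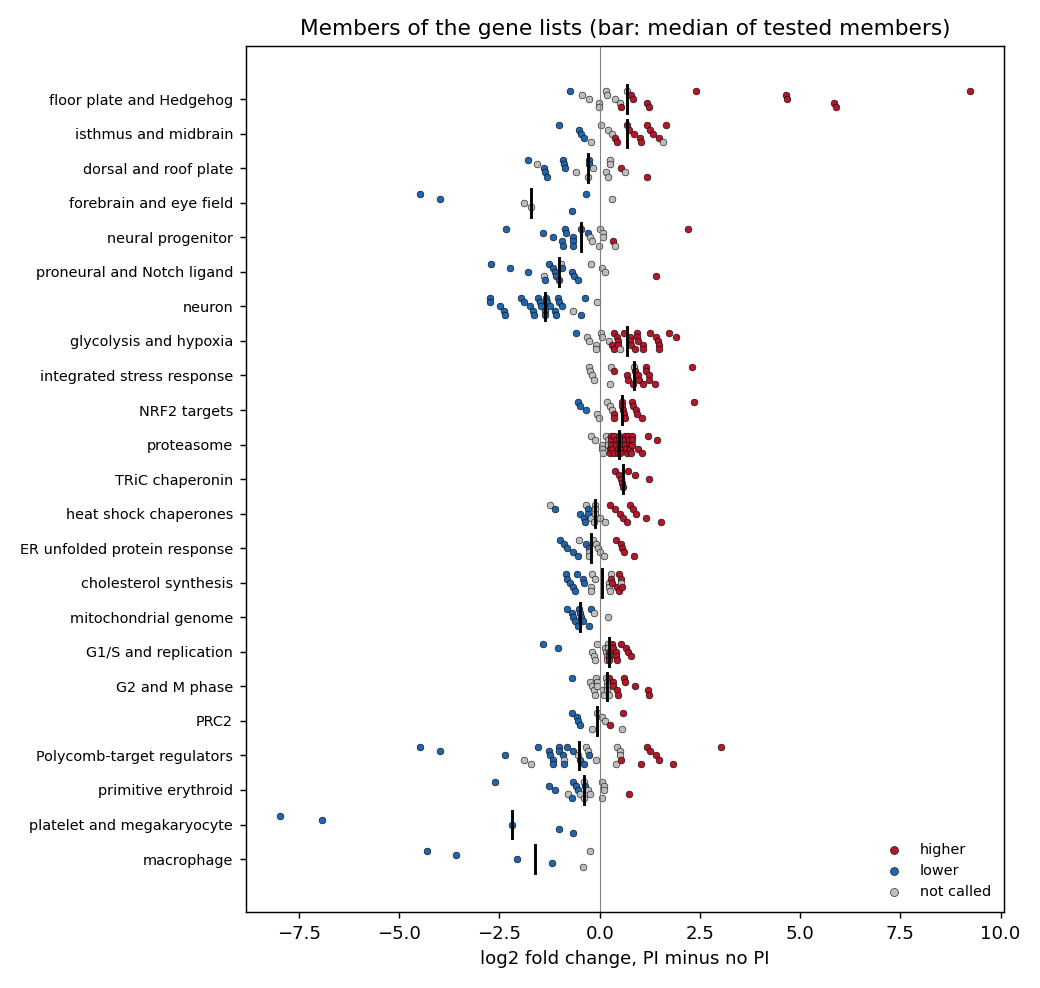
Log2 fold change of PI minus no PI for the tested members of 23 gene lists (horizontal axis), 1 point per gene, red for called higher, blue for lower and grey for not called, with a bar at the median of the tested members. All 8 TRiC genes and 34 of 42 proteasome genes are red, and 25 of 27 neuron genes are blue.

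Glycolysis and hypoxia genes were higher with PI in 23 of 32 tested and lower in 1, with a median of 0.67. The promoters of some of them are shown because ACGTG is the core of the hypoxia response element. The stretches are from RefSeq on GRCm38.p6, 5′ to 3′ on the gene's strand and upstream of its start, with each ACGTG or its reverse complement CACGT in capitals, so that the palindrome CACGTG counts on both strands. They come from chr7:46845639-46845794 (plus strand), chr7:138909589-138909634 (minus strand) and chrX:106186930-106186993 (plus strand).
Ldha: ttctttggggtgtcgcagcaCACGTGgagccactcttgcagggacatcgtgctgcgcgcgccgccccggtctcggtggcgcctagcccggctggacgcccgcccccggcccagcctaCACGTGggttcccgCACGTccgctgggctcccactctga
Bnip3: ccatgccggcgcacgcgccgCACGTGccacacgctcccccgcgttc
Pgk1: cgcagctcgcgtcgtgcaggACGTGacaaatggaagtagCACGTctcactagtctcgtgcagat
Of the 23 members called higher, 20 had a promoter in the table and 13 of these held ACGTG on either strand within 300 bases around the start, 250 before it and 50 after. Among the members not called higher, 7 of the 8 with a promoter held it. Over all 9939 tested genes with a promoter, 29.0% did. A match is a description of the letters and not of binding.

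Bnip3, a mitochondrial outer membrane protein of hypoxic cells (ENSMUSG00000078566.8, chromosome 7, 138890836 to 138909519), had 89.2 and 116 CPM without PI, 343 and 348 CPM with PI, and 183 and 187 CPM at 9.0 dpc. It rose by 1.74 ± 0.10 (edgeR adjusted p = 1.2e-09), and its PI level lay above that of both other groups. The list as a whole did not: it summed to 6347 and 7496 CPM without PI, 11980 and 13120 CPM with PI, and 12960 and 14370 CPM at 9.0 dpc. The glucose transporter Slc2a1 rose from 79.4 and 90.8 to 238 and 240 CPM. Along the pathway, hexokinase Hk2 rose by 1.41 ± 0.10, Gpi1 by 0.77 ± 0.09, Aldoa by 1.09 ± 0.09, Tpi1 by 0.93 ± 0.09, Pgk1 by 0.74 ± 0.09, Pgam1 by 0.76 ± 0.09 and Pkm by 0.92 ± 0.09. Enolase Eno1 had 628 and 832 CPM without and 1958 and 2110 CPM with PI. Lactate dehydrogenase Ldha had 804 and 1059 CPM without, 2156 and 2292 CPM with PI, and 2157 and 2446 CPM at 9.0 dpc. Gapdh had overlapping groups (1239 and 1493 against 1371 and 2054 CPM), and its call (0.30 ± 0.09) was lost without lot 2 of either group (0.17 and 0.20) and without either library at 9.0 dpc (0.31 and 0.27). Pfkp, the platelet form of phosphofructokinase, was the member that fell (0.59 ± 0.17 down). Its call too was lost without lot 2 of either group (-0.56 and -0.49, edgeR adjusted p = 0.10 and 0.19).

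Among hypoxia targets outside glycolysis, the peptide hormone gene Adm had 0.592 and 1.04 CPM without PI, 3.23 and 3.56 CPM with PI, and 0.268 and 0.729 CPM at 9.0 dpc. Adm was not called without lot 2 of either group (2.28 and 2.60, edgeR adjusted p = 0.10 and 0.081). Epo, the gene of erythropoietin, had 0 and 0.418 CPM without, 1.89 and 2.62 CPM with PI, and 0.537 and 0.182 CPM at 9.0 dpc, a log2 fold change of 2.92 ± 0.70 (edgeR adjusted p = 0.003), and without lot 2 of the no-PI group, when the library left has no count, the fitted value was 6.91 and not called (edgeR adjusted p = 0.059). P4ha1, a collagen prolyl hydroxylase, rose by 0.60 ± 0.11.

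Genes of the integrated stress response, the program of the factor Atf4, were higher in 14 of 21 tested and lower in none, with a median of 0.85. Atf4 and its partners of the C/EBP family bind TGATGNAA. This motif is in capitals, on either strand, in 2 promoters that hold it. The stretches come from chr6:7693210-7693252 (minus strand) and chr3:50443633-50443699 (minus strand), again from RefSeq on GRCm38.p6 and upstream of the RefSeq start. By the gene position given below, which is from GENCODE M21, the Asns stretch lies inside the gene.
Asns: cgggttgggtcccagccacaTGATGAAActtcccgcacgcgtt
Slc7a11: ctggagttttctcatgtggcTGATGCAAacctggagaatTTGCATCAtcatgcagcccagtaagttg
Of the 11 members called higher with a promoter in the table, 3 held the motif in the 300 bases, as did 2 of the 7 others. Over all tested genes with a promoter the share was 2.79%.

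Asns, which makes asparagine (ENSMUSG00000029752.12, chromosome 6, 7675169 to 7693254), had 31.1 and 36.7 CPM without PI, 75.7 and 83.7 CPM with PI, and 54.2 and 63.8 CPM at 9.0 dpc, a rise of 1.23 ± 0.10 (edgeR adjusted p = 5.8e-08). The enzymes of serine and one-carbon metabolism moved with it: Psat1 went from 102 and 116 to 245 and 240 CPM, Phgdh rose by 0.67 ± 0.09, Shmt2 by 1.15 ± 0.11 and Mthfd2 by 1.09 ± 0.10. Cth, which makes cysteine, rose by 1.24 ± 0.12. The amino acid transporter gene Slc3a2 rose by 0.97 ± 0.10. Atf4 itself had 53.9 and 48.5 CPM without and 94.3 and 92.8 CPM with PI. Ddit3, the death-linked factor of the same response, did not pass the test (4.44 and 5.22 against 3.77 and 4.66 CPM), nor did Atf3, Atf5 and Ppp1r15a. Trib3, Chac1 and Sesn2 were too low to be tested.

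The unfolded protein response of the endoplasmic reticulum did not move as a group, with 5 of 20 tested genes higher and 7 lower. Xbp1, its splicing-activated factor, fell from 55.1 and 54.1 to 25.3 and 31.7 CPM, and the chaperones Dnajb9 and Dnajc3 fell by 0.99 ± 0.16 and 0.81 ± 0.10. The disulfide isomerase Pdia6 rose by 0.54 ± 0.08. Genes of heat shock chaperones of the cytosol and mitochondrion were likewise mixed, 10 of 25 higher and 6 lower, with a median of -0.11. Stip1, a co-chaperone that joins Hsp70 and Hsp90, rose from 53 and 61 to 155 and 172 CPM, and Ahsa1, an activator of Hsp90, by 1.16 ± 0.10. Hspa4l, a relative of Hsp70, fell by 1.11 ± 0.10. Hspa1a, Hspa1b and Hspb1, strongly induced by heat and damaged protein, were too low to be tested.

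All 8 subunit genes of TRiC, the ring that folds actin and tubulin, were higher with PI, with log2 fold changes of 0.37 to 1.22. Cct7 (ENSMUSG00000030007.8, chromosome 6, 85451514 to 85468475) had 137 and 172 CPM without PI, 349 and 374 CPM with PI, and 260 and 296 CPM at 9.0 dpc.

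Proteasome genes rose broadly and modestly. Of 42 tested, 34 were higher and none lower, and the median was 0.48. The list summed to 9808 and 11530 CPM without PI, 14160 and 14380 CPM with PI, and 13300 and 14660 CPM at 9.0 dpc. Psmd13, a subunit of the regulatory particle (ENSMUSG00000025487.15, chromosome 7, 140881968 to 140898643), had 18.7 and 27.5 CPM without PI, 57.4 and 68.8 CPM with PI, and 34.6 and 43.2 CPM at 9.0 dpc. At 1.42 ± 0.11 (edgeR adjusted p = 4.0e-08) its rise exceeded that of the other 41. The regulatory ATPases Psmc5 and Psmc1 rose by 1.20 ± 0.09 and 1.04 ± 0.09. Of the catalytic subunits, Psmb7 rose by 0.79 ± 0.09. The ring subunit Psma6 did not pass the test (0.05 ± 0.09). Ubiquitin genes and shuttles showed no common direction, with 6 of 20 higher and 5 lower.

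**Figure D5:**
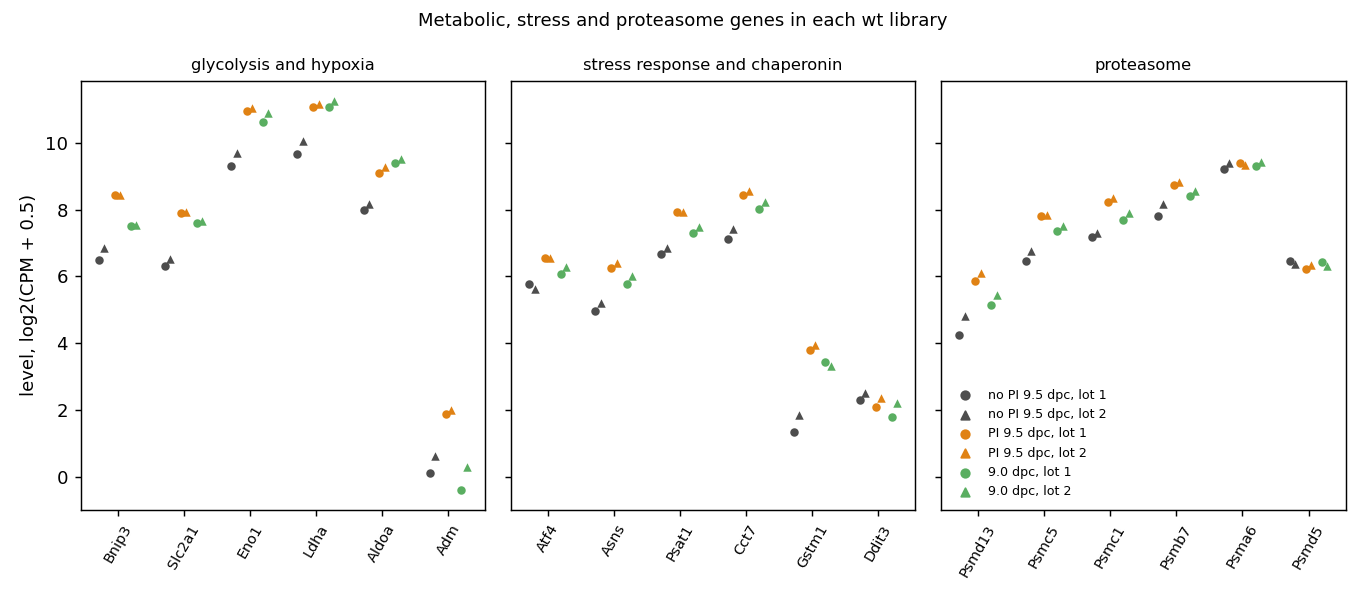
Level as log2(CPM + 0.5) of 18 genes of metabolism, stress responses and the proteasome (horizontal axis) in each of the 6 wt libraries, with grey for no PI at 9.5 dpc, orange for PI, green for 9.0 dpc, circles for lot 1 and triangles for lot 2. Bnip3, Slc2a1, Asns and Psmd13 are highest in both PI libraries, while Ddit3, Psma6 and Psmd5 show no called difference.

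Antioxidant genes of the NRF2 program were higher in 13 of 21 tested and lower in 3, with a median of 0.54. Their list summed to 4337 and 5031 CPM without PI, 6361 and 6344 CPM with PI, and 6754 and 7198 CPM at 9.0 dpc. Gstm1, a glutathione transferase with near-identical relatives, had 2.07 and 3.13 CPM without and 13.5 and 15.1 CPM with PI. The ferritin light chain Ftl1 rose by 1.06 ± 0.10, and Tkt and Taldo1 of the pentose phosphate pathway by 0.94 ± 0.11 and 0.54 ± 0.09. Some members fell: Nfe2l2, the gene of NRF2, by 0.55 ± 0.13, and its target Gclm by 0.48 ± 0.10. Targets of p53 were higher in 4 of 19 (21.1%) and lower in 5 (26.3%). Immediate-early genes were higher in 2 of 18 (11.1%) and lower in 6 (33.3%). The shares over all genes tested were 21% higher and 17.9% lower. Cholesterol synthesis was split, with 7 of 24 higher and 8 lower: Hmgcs1, an early enzyme of the pathway, fell by 0.83 ± 0.09, and Fdps and Idi1 rose by 0.53 ± 0.09 and 0.47 ± 0.09.

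The transcripts of the mitochondrial genome fell, 11 of 13 lower and none higher, with a median of -0.49. mt-Nd2, a subunit of complex I, had 1590 and 1372 CPM without PI and 835 and 850 CPM with PI. mt-Co3, of complex IV, fell by 0.67 ± 0.09.

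Cell cycle genes were more often higher than lower. Of 24 genes of G1/S and replication, 12 were higher and 2 lower, the helicase subunit Mcm5 by 0.71 ± 0.09 and cyclin gene Ccne1 by 0.79 ± 0.12. Those lower were Cdkn1c, an inhibitor of cyclin-dependent kinases, with 125 and 104 CPM without and 47.9 and 38.9 CPM with PI, and Cdkn1b, another. Of 25 genes of G2 and M phase, 10 were higher, among them Aurka and Plk1 (1.20 ± 0.09 and 1.22 ± 0.13). Mki67, a marker of dividing cells, was the member that fell, by 0.68 ± 0.09.

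Genes of 3 kinds of blood cell were measured. Platelet and megakaryocyte genes fell in 5 of 5 tested of 14 listed, and the list summed to 145 and 142.5 CPM without PI and 58.4 and 53.7 CPM with PI. Pf4, a platelet chemokine, had 63.1 and 74.9 CPM without PI, 17.0 and 14.8 CPM with PI, and 0.268 and 0.091 CPM at 9.0 dpc. Ppbp, another, had 56 counts in the no-PI group and 0 with PI, at least 22.4-fold lower, a bound of 5.35-fold without lot 2 of PI. Without lot 2 of the no-PI group 2 platelet genes were called. Macrophage genes were lower in 4 of 6 tested of 20 listed, and the list summed to 46.8 and 41.4 CPM against 12.4 and 16.4 CPM. Tyrobp, a signalling adaptor of macrophages, had 5.92 and 4.39 CPM without and 0.269 and 0.423 CPM with PI, a log2 fold change of -3.59 that was -4.75 without lot 2 of the no-PI group and -4.31 without lot 2 of PI. The defining markers C1qa, Cx3cr1 and Adgre1 were too low to be tested.

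Red cell genes were lower in 8 of 19 tested and higher in 1, with a median of -0.40. The embryonic globins Hbb-y and Hbb-bh1 fell by 1.12 ± 0.12 and 1.26 ± 0.11, with 5236 and 6631 against 2370 and 3100 CPM for Hbb-y. The adult globin Hbb-bt fell from 55.4 and 47.7 to 8.08 and 8.30 CPM, though reads of globin copies may be shared. Hbb-bs did not pass the test, and Alas2 was the member called higher. Outside the list, Hbb-bh0, classed here with predicted genes and pseudogenes, rose from 0.296 and 0.209 to 9.97 and 11.2 CPM. Without the lot as a block 5 red cell genes were called lower, as they were without lot 2 of the no-PI group. Prl8a2, a prolactin relative of the decidua, had 143 and 24.7 CPM without and 1.62 and 0.593 CPM with PI, highest in lot 1 of the no-PI group. Its log2 fold change of -5.94 was -7.07 without lot 2 of the no-PI group, and it was not called without lot 2 of PI (edgeR adjusted p = 0.13). Its list of 28 genes of trophoblast and decidua summed to 171 and 50.6 CPM without PI and 42.5 and 53.2 CPM with PI.

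Genes of other tissues were mixed. Of 19 endothelial genes tested, 5 were higher (26.3%) and 3 lower (15.8%), beside 21% and 17.9% over all genes tested. Head mesenchyme had 1 of 16 higher and 4 lower, and extracellular matrix 2 of 29 higher and 10 lower, with Col1a2 and Col3a1 down by 0.86 ± 0.11 and 0.61 ± 0.08. Spink1, a protease inhibitor made by gut and yolk sac endoderm, had 0.592 and 0.104 CPM without, 21 and 25.3 CPM with PI, and 12.1 and 8.93 CPM at 9.0 dpc, a ratio of 105 on 377 counts against 3 (95% counting interval 35.6 to 510). The ratio was 232 without lot 1 and 41.0 without lot 2 of the no-PI group. In the endoderm list 2 of 9 tested genes were called higher, Spink1 itself and Lrp2, and 15 of 24 were too low to test. The smooth muscle genes Myl9 and Acta2 rose by 1.54 ± 0.15 and 1.48 ± 0.17. They were the 2 called members (25%) of 8 tested in the muscle list, whose median was 1.10.

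The word PI also stands in the title of a library labelled Skp1acont at 9.5 dpc. It was set against the Skp1acont library of the same lot. No library is shared with the wt comparison, but the lot label, lot 1, is. With 1 library a side there is no test, and these are differences between those libraries. Their counts also differed in makeup from wt at 9.5 dpc. Mitochondrial genes took 7.3% with and 6.0% without PI, against 2.7% to 4.0% in the 4 wt libraries. Cytosolic ribosomal protein genes took 9.20% and 9.33%, against 12.7% to 14.7%. Chemoreceptor genes took 1.87% and 1.54%, against 0.359% to 0.595%. The part of this makeup in the values below was not tested. At least 2-fold higher values were seen in 1.85% of 12409 genes and lower in 1.77%. Foxa2 had 16.1 CPM with and 3.06 CPM without PI, Foxa1 10.1 and 1.41 CPM, Nkx2-9 17.9 and 0.942 CPM, and Shh 15.1 and 3.77 CPM. Of 19 floor plate and Hedgehog genes 9 were at least 2-fold higher and none lower, with a median of 0.97. The neuron list had a median of -0.49, with 2 of 27 at least 2-fold lower, and Fabp7 had 120 CPM with and 220.5 CPM without PI.

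The metabolic groups lay near 0 in that pair. The proteasome had a median of -0.07, glycolysis and hypoxia -0.08, the integrated stress response 0.12 and TRiC -0.20, with no member of these lists 2-fold apart in either direction. In the wt pair the medians were 0.48, 0.67, 0.85 and 0.57, so only the stress response kept its sign in the Skp1acont pair. The mitochondrial genome had a median of 0.40 in the Skp1acont pair and -0.49 in wt. Other lists also had medians of the opposite sign in the Skp1acont pair. Platelet genes had 1.03, with 2 of 4 at least 2-fold higher, against -2.19 in wt, red cell genes 0.59 against -0.40, and Polycomb-target regulators 0.28 against -0.51. Endothelial genes had -0.66 against 0.17 in wt, and head mesenchyme 0.57 against -0.22. The difference between the genotypes was not tested.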

How the data were processed

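Poly(A) RNA was isolated with the RNeasy Mini Kit and the NEBNext poly(A) module, per the labels' protocols. Trim Galore 0.6.7 and the build GRCm38 (mm10) are named in the tools and builds per the submitters' processing notes. Which aligner and counter were run, and whether strand was used, is not given in the sources used here. The authors deposited whole-number counts per gene symbol, 36255 genes in 11 libraries. CPM were computed here from the counts and library sizes adjusted by TMM scaling, not from the raw library totals. The CPM floor of a gene without counts was the exception and used the raw totals.

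Counts of the 6 wt libraries (9.5 dpc, 9.5 dpc PI and 9.0 dpc, lots 1 and 2) were fitted with edgeR 4.0.16 in R 4.3.3 (limma 3.58.1), with TMM scaling, filterByExpr by group, group plus lot as terms, and the robust quasi-likelihood F test, two-sided. P-values were adjusted by Benjamini-Hochberg over 13126 genes, with 0.05 as the limit for a call. Log2 CPM used a prior count of 2. Lot as a block follows from the titles. Deviations of same-lot libraries from their group means correlated across genes at 0.456 (9.5 dpc with PI), 0.501 (9.5 with 9.0 dpc) and 0.459 (PI with 9.0 dpc). The fit was tested on simulated data. DESeq2 1.42.0 was an alternative, beside other scalings, filters, library sets and each library left out.

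There were 40 gene lists with 907 genes. Members and lists were chosen with earlier results of these data known. The rule for named genes took Skp1a, Ezh2, Eed, Suz12 and Meis2, the 15 largest changes and 10 smallest p in each direction, and up to 6 called genes per list and direction. Genes named beyond it were chosen after their values were seen. Intervals of count ratios are exact at 95%. Positions are from GENCODE M21, to which 34761 symbols matched, and promoters are from RefSeq on GRCm38.p6. A few genes are not reported here.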

Additional observations from a re-analysis of the deposited data

How the results depend on the processing

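Without a replicate block 3669 genes were called, 2042 higher and 1627 lower, and 5 red cell genes were called lower against 8 with the block. No gene called in the main comparison was called in the opposite direction under any setting run. In the fit of all 11 libraries and groups 13 genes passed, 7 higher and 6 lower (1637 at an unadjusted p under 0.05). There, 4 floor plate genes were higher, 3 neuron genes and 1 Polycomb target lower, and 0 were called in the other lists counted here. DESeq2's Wald test called 1880 genes, 1010 higher and 870 lower, and 1858 of them were called in the main comparison. List counts under this test are given for some lists only. It called higher 6 floor plate, 5 isthmus, 8 stress response, 8 NRF2, 3 Polycomb-target and 1 PRC2 genes, and lower 8 proneural, 3 platelet, 2 macrophage and 10 Polycomb-target genes. Under a filter of 10 CPM these were 7 floor plate and 5 Polycomb-target genes higher, and 2 platelet and 0 macrophage genes lower. Without a filter 7 macrophage genes were lower. In the 4 libraries at 9.5 dpc alone 5 Polycomb-target genes and 1 PRC2 gene were higher. The share of calls that were higher was 54.0%, 48.3% with DESeq2 size factors and 57.9% with library totals.

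With each library left out in turn, 3473 to 5036 genes were called, 1800 to 2678 higher and 1564 to 2593 lower. The list counts ran as follows. Higher were 9 to 12 floor plate, 10 to 12 isthmus, 25 to 33 proteasome, 8 TRiC, 11 to 14 stress response, 10 to 13 NRF2, 18 to 21 glycolysis, 4 to 8 Polycomb-target and 1 to 2 PRC2 genes. Lower were 20 to 24 neuron, 11 to 13 proneural, 10 to 13 progenitor, 9 to 10 mitochondrial, 2 to 5 platelet, 3 to 6 macrophage, 5 to 9 red cell, 12 to 18 Polycomb-target and 4 PRC2 genes. Some genes that were not called sat on both sides of 0. Gli2 (main value -0.02) was at 0.012 with library totals, 0.046 with length and GC offsets, and -0.206 to 0.064 with a library left out. Gli3 (-0.01) was at 0.006 in the fit of 11 libraries, 0.025 with library totals, 0.002 under a filter of 1 CPM, 0.102 with the offsets, and -0.133 to 0.147 with a library left out. Psma6 was at -0.001 under the 10 CPM filter, -0.063 with the offsets, and -0.062 to 0.156 with a library left out. Eed was at -0.036 with the offsets, and Onecut1 ran from -0.914 to 0.001 with a library left out. The causes were not tested.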

Other observations

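Some gene families outside the lists above, taken by symbol or name after the data had been seen, were uneven as well. Of 36 aminoacyl-tRNA synthetase genes tested, which charge tRNAs with amino acids, 20 were higher with PI and none lower, with a median log2 fold change of 0.33. Translation initiation factors were higher in 31 of 54 and lower in 6, and nucleoporins, the proteins of nuclear pores, higher in 12 of 20 and lower in none. Ribosomal proteins of the mitochondrion were higher in 42 of 78 and lower in 13, while those of the cytosol were higher in 18 of 83 and lower in 34. Nuclear genes of the respiratory chain were higher in 20 of 91 and lower in 45. Over all genes tested 21% were higher and 17.9% lower. Zinc finger genes of the Zfp series were higher in 30 of 349 and lower in 73. None of 29 potassium channel genes tested was called by edgeR in either direction.

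Genes in which PI lay outside the levels of both other wt groups were sought after seeing the data. In 28 of the 2758 genes called higher, both PI libraries were more than 2-fold above each of the 4 other wt libraries, and 23 of these were not predicted genes or pseudogenes. Stc1, a secreted glycoprotein of calcium balance, had 14.3 and 16.7 CPM with PI against 2.37 and 2.82 CPM without and 5.91 and 5.01 CPM at 9.0 dpc. Trh, the gene of thyrotropin-releasing hormone, had 78.6 and 88.5 CPM with PI and 14 to 28.6 CPM in the others. Fgf15, an FGF ligand of the neural tube, had 104 and 114 CPM with PI, 41.8 and 47.1 CPM without and 25 and 31.2 CPM at 9.0 dpc. Ciart, a repressor of the circadian clock, had 15.1 and 19 CPM with PI and 2.61 to 5.92 CPM in the others. Adm, Epo and Neurog2 were among the 28.

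In 18 of the 2353 genes called lower, both PI libraries were below each of the others by more than 2-fold, 14 of them not predicted genes. Txnip, which binds thioredoxin and restrains glucose uptake, had 1.35 CPM in each PI library, 8.59 and 9.40 CPM without PI and 11.8 and 9.12 CPM at 9.0 dpc. Its relative Arrdc4 had 2.42 and 2.46 CPM with PI and 8.86 to 12.1 CPM in the others. Epha4, an ephrin receptor of the developing brain, had 8.35 and 8.64 CPM with PI, 37.6 and 34.1 CPM without and 22 and 19.2 CPM at 9.0 dpc. These counts describe genes already called, and no test of them was made.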
